A study of Mus musculus with 11 samples.

Results

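Transcripts of 9 growth factor receptor tyrosine kinases were followed across a murine model of melanoma progression. The receptors were chosen by name, with earlier results of these data known. All 9 (*Fgfr1*, *Fgfr2*, *Met*, *Erbb2*, *Erbb3*, *Egfr*, *Pdgfra*, *Pdgfrb* and *Igf1r*) have a value among the 14272 genes deposited. The parental line, melan-a, consists of nonmalignant melanocytes of C57Bl/6 background with epithelial morphology, which became immortal in culture. Its medium held PMA at 200 nM, a phorbol ester and activator of protein kinase C. The other lines were obtained from melan-a by repeated detachment and re-adhesion, without a transgene, and were grown without PMA, so PMA and the line cannot be told apart in any comparison with melan-a. 4C is a pre-malignant mesenchymal-like line that forms no tumour, 4C11- is a mesenchymal-like melanoma line that forms tumours without metastases, and 4C11+ is an epithelial melanoma line that forms tumours and lung metastases. All lines were kept in RPMI medium with 5% serum. Total RNA sequencing gave 11 libraries, namely melan-a replicates 2 and 3 and replicates 1 to 3 of 4C, 4C11- and 4C11+. The sources used here do not say that the libraries of a line came from separate cultures, so each p-value measures only the spread between these samples, which may be technical, and not between independently derived lines.

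Receptor tyrosine kinases are membrane proteins that bind a secreted or membrane-anchored growth factor outside the cell and phosphorylate tyrosines inside it. The phosphorylated tyrosines recruit adaptors such as Grb2 and Shc proteins, which feed the RAS-MAPK and PI3K pathways. Melanocytes are known to respond to hepatocyte growth factor through Met, to fibroblast growth factors through their receptors and to stem cell factor through Kit, and Erbb3 is a neuregulin receptor of the neural crest lineage. Platelet-derived growth factor receptors are typical of fibroblasts and other mesenchymal cells.

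The values are library-scaled read counts (CPM) on the log2 scale, which the authors obtained with voom and which are not divided by gene length. Sequencing depth was inferred as 3.50 to 7.42 M reads per library, because low values fall on whole reads. Lines with at most 3 reads of a gene in every library were taken to lack it. A fold against such a line is a lower bound computed at 3 reads in each library, which covers counting error only. Genes were compared with limma over all 11 libraries, and a gene was called at a Benjamini-Hochberg adjusted p under 0.05. Beside a lower bound, the adjusted p is that of the fit to the deposited values, including those at 0 reads. It does not test the bound. In bulk RNA, fewer cells expressing a receptor and less RNA of it per cell cannot be told apart.

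The melan-a libraries stood apart from each other. Their correlation across genes was 0.907, and replicate 2 held more *Pdgfrb*, *Pdgfra* and *Fgfr1* and less *Tyrp1* (8.51 against 12.63) than replicate 3. Among the other melanocyte markers measured, *Sox10* (9.05 against 7.88) and *Kit* (6.92 against 6.18) were higher in replicate 2, and the rest were lower. Of the 2 leukocyte markers measured, *Cd68* was higher in replicate 2 (6.35 against 2.67), while *Csf1r* had 5 reads in replicate 2 and 4 in replicate 3. The part of these markers in the receptor results was not tested. Folds against melan-a are therefore followed by their values without either library where that ends a call, reverses a direction or moves the fold by more than 1.5 times. Of 10 melanocyte markers, 9 were measured, and their summed level was 1960 to 9190 CPM for melan-a, 11300 to 13600 CPM for 4C11+, 3.94 to 8.62 CPM for 4C and 4.27 to 12.8 CPM for 4C11-. The melanocyte origin of 4C and 4C11- is therefore hardly visible in the summed level of these markers. *Sox10* had 0 to 1 reads in 4C and 7, 8 and 3 reads in 4C11-. *Pmel* was low in melan-a too (20 and 45 reads), overlapped 4C11- and was not called between these lines (adjusted p = 0.163). *Tyr* had 0 reads in 4C11-, but only 3 and 13 reads in melan-a. Of 10 fibroblast markers, 5 were measured, including *Pdgfra* and *Pdgfrb* themselves. The other 3 (*Col1a1*, *Col3a1* and *Twist2*) summed to 1880 to 2000 CPM in 4C and 1430 to 1790 CPM in 4C11-, against 2.94 to 3.13 CPM in melan-a and 3.11 to 4.85 CPM in 4C11+, with *Twist2* at 0 reads in all 5 epithelial libraries. Both lists moved with the phenotype, as several receptors did, and their part in the receptor results was not tested.

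In the contrast of the mesenchymal-like lines (4C and 4C11-) with the epithelial lines (melan-a and 4C11+), all 9 receptors were called, 7 higher and 2 lower in the mesenchymal-like lines. Of all genes tested, 29.7% were called in that contrast, and the receptors had been chosen with earlier results of these data known. *Egfr* rose from absence, *Pdgfra*, *Pdgfrb* and *Erbb2* were higher in every mesenchymal-like library than in every epithelial one, and *Met* and *Erbb3* were lower in every one. For *Fgfr1*, *Fgfr2* and *Igf1r* the libraries of the 2 phenotypes overlapped, because melan-a held levels near those of 4C and 4C11- and the lower mean of the epithelial lines came from 4C11+.

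Along the sequence of lines, the largest number of receptor calls lay at the last step. Between 4C and melan-a, 4 receptors were higher and 2 lower in 4C (15.2% of all genes were called). Between 4C11- and 4C, *Met* alone was called, lower in 4C11- (1.67% of all genes). Between 4C11+ and 4C11-, all 9 were called, 2 higher and 7 lower in 4C11+ (31.1% of all genes), and between 4C11+ and 4C the same split was found (31.7% of all genes). Against melan-a, 4C11- had 3 receptors higher and 2 lower (13.6% of all genes), and 4C11+ had 0 higher and 4 lower (15.9% of all genes). These comparisons share libraries and are not independent of each other. The plot of receptor levels by library shows the 4 lines side by side for each gene.

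**Figure D1:**
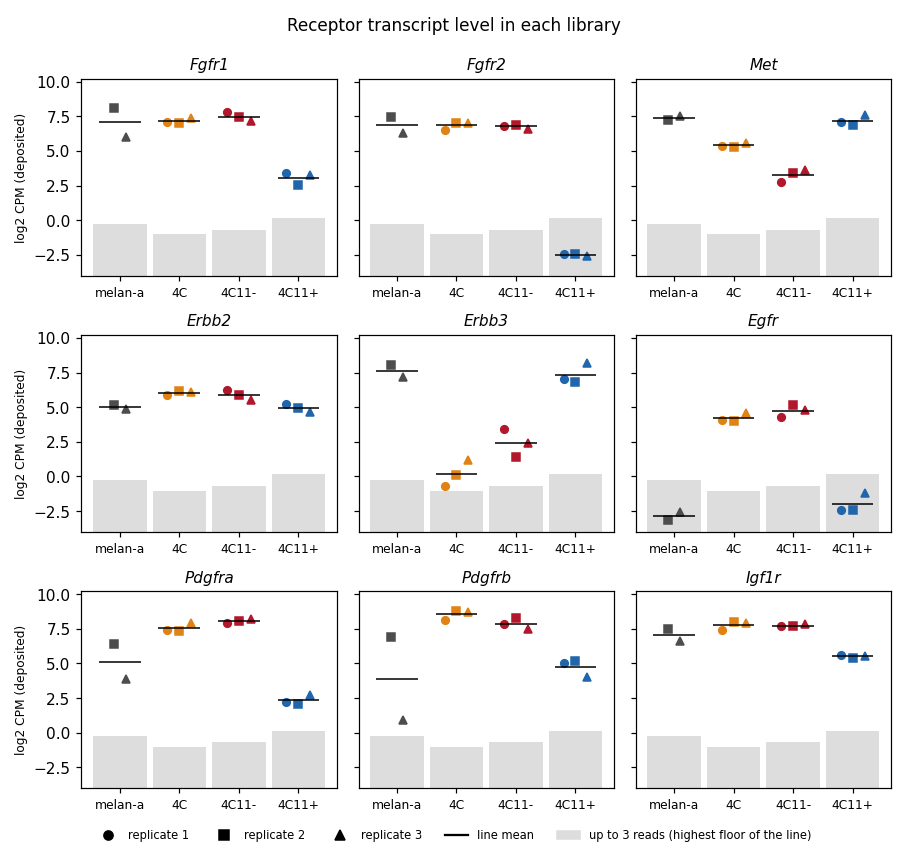
Deposited log2 CPM (y axis) of the 9 receptors in each of the 11 libraries, by line (x axis); symbols mark the replicate number, black lines the mean of a line, and grey areas values up to the highest 3-read level of the line. *Egfr* lies in the grey area in melan-a and 4C11+, *Fgfr2* lies there only in 4C11+, and *Pdgfrb* spans 0.89 to 6.90 in the 2 melan-a libraries.

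*Egfr*, the receptor of epidermal growth factor and related ligands (chromosome 11, 16752203 to 16913907, plus strand, GRCm38), was read above the limit of 3 reads only in the mesenchymal-like lines. It had 0 reads in both melan-a libraries and 0, 0 and 1 reads in the 4C11+ libraries. Its log2 values were 4.10, 4.03 and 4.60 in 4C, and 4.29, 5.13 and 4.80 in 4C11-. No epithelial library came near the lowest mesenchymal-like one. The mean of the mesenchymal-like lines was at least 25.6-fold higher than that of the epithelial lines (adjusted p = 5.18e-08). Within the derived melanoma lines, *Egfr* was at least 26.2-fold lower in 4C11+ than in 4C11- (adjusted p = 1.04e-06), and 4C was at least 24.9-fold higher than melan-a (adjusted p = 2.73e-06). 4C11- and 4C overlapped and differed by 0.49 ± 0.47 (log2, SE; adjusted p = 0.706).

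The promoter windows of *Egfr* and *Erbb2* are shown because these related receptors lie on the same chromosome and behaved differently, *Egfr* falling below detection in the epithelial lines and *Erbb2* being read in every library. Each is the 250 bases before the RefSeq gene start (GRCm38.p6, plus strand), chr11:16751953-16752202 for *Egfr* and chr11:98412234-98412483 for *Erbb2*, with every CG dinucleotide in capitals.
Egfr: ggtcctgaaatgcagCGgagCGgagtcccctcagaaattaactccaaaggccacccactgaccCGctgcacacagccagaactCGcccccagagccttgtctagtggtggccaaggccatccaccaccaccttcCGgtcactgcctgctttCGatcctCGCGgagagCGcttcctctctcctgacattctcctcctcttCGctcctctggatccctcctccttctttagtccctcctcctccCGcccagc
Erbb2: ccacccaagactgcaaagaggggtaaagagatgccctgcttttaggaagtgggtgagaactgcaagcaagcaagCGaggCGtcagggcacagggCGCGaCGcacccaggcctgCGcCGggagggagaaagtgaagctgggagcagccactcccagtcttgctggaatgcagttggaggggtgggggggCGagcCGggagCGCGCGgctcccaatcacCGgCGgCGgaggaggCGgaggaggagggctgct
The *Egfr* window held 11 CG dinucleotides and that of *Erbb2* 16, against a median of 6 over all 32851 windows of the same length. The motif GGGCGG, searched on both strands, occurred 1 time in the *Egfr* window and 0 times in that of *Erbb2*, and 32.7% of all windows held it. The E-box CACGTG and the AP-1 type motif TGANTCA were in neither window, and 6.02% and 6.75% of all windows held them. A match or its lack describes the letters of a window and not binding of a factor.

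*Erbb2*, which has no known ligand of its own and acts as the partner of other Erbb receptors (chromosome 11, 98412484 to 98437716), was the receptor that varied least, with a range of 1.11 between the highest and lowest line means. Its log2 values were 5.14 and 4.88 in melan-a, 5.90, 6.17 and 6.11 in 4C, 6.24, 5.87 and 5.52 in 4C11-, and 5.25, 4.93 and 4.65 in 4C11+. The 6 mesenchymal-like libraries lay above the 5 epithelial ones without overlap. Their mean was 1.99-fold higher (log2 0.99 ± 0.19, SE; adjusted p = 0.00212), and in all alternatives to that fit the adjusted p did not exceed 0.00992. The comparisons of single lines were less firm. 4C was 2.07-fold higher than melan-a (adjusted p = 0.0282), but leaving out either melan-a library gave adjusted p = 0.0546 or 0.126 and leaving out 4C replicate 2 or 3 gave 0.0975 or 0.075. 4C11+ was 1.91-fold lower than 4C11- (adjusted p = 0.0164), with 0.0515 to 0.0535 when 4C11- replicate 2 or 4C11+ replicate 2 or 3 was left out. *Mien1* overlaps *Erbb2* on the opposite strand, and the counting is not stated to use strand.

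*Erbb3*, a neuregulin receptor with little kinase activity that signals together with Erbb2 (chromosome 10, 128567523 to 128589635, minus strand), was abundant in the epithelial lines and nearly lost in the mesenchymal-like ones. Its log2 values were 8.05 and 7.17 in melan-a and 7.06, 6.83 and 8.17 in 4C11+. They were -0.70, 0.08 and 1.18 in 4C, from 4, 8 and 13 reads, and 3.41, 1.44 and 2.44 in 4C11-, from 47, 20 and 36 reads. The phenotypes did not overlap, and each 4C library lay below each 4C11- library. *Erbb3* was 72.2-fold lower in the mesenchymal-like lines (log2 -6.17 ± 0.44, SE; adjusted p = 7.97e-07), 171-fold lower in 4C than in melan-a (adjusted p = 1.07e-05) and 30.4-fold higher in 4C11+ than in 4C11- (adjusted p = 7.6e-05). The difference of 2.24 ± 0.59 (log2, SE) between 4C11- and 4C missed the threshold (adjusted p = 0.0913), and melan-a and 4C11+ overlapped with a difference of -0.26 ± 0.66 (adjusted p = 0.825). *Erbb3* is also on the list of 7 Schwann cell markers, of which 6 were measured. The other 5 summed to 521 to 1400 CPM in melan-a and 653 to 1000 CPM in 4C11+, against 101 to 130 CPM in 4C and 49.1 to 93.8 CPM in 4C11-, and *Sox10* and *Mbp* among them are expressed by melanocytes as well as by glia, so the list does not mark a single cell type here. *Egr2*, another of them, went the other way and was 9.11-fold higher in the mesenchymal-like lines (adjusted p = 0.000662).

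Of the ligands of the Erbb receptors, *Egf*, *Tgfa*, *Hbegf*, *Nrg2* and *Nrg4* were measured. *Nrg2*, a neuregulin that binds Erbb3 and Erbb4, was likewise higher in the epithelial lines. It had log2 values of 3.08 and 4.10 in melan-a and 3.69, 3.41 and 2.85 in 4C11+, and 0 reads in all 6 mesenchymal-like libraries. It was at least 29.2-fold lower in the mesenchymal-like lines (adjusted p = 9.58e-08), and melan-a and 4C11+ overlapped. The Egfr ligands were not called between the phenotypes. *Tgfa* averaged 4.42 in the mesenchymal-like and 4.92 in the epithelial lines (adjusted p = 0.135), *Hbegf* 4.43 and 4.89 (adjusted p = 0.258), and *Egf* 0.98 and 0.98 (adjusted p = 0.995). Between 4C and melan-a, *Tgfa* was 2.45-fold lower in 4C (adjusted p = 0.0282), a call lost without melan-a replicate 2 or 3 (adjusted p = 0.0822 and 0.104), and *Hbegf* was 2.34-fold lower without being called (adjusted p = 0.0771). *Nrg4* averaged 0.54 and 1.23 (adjusted p = 0.193).

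*Met*, the receptor of hepatocyte growth factor (chromosome 6, 17463349 to 17573980, plus strand), fell stepwise from melan-a through 4C to 4C11- and was high again in 4C11+. Its log2 values were 7.24 and 7.48 in melan-a, 5.34, 5.29 and 5.57 in 4C, 2.72, 3.42 and 3.65 in 4C11-, and 7.07, 6.84 and 7.59 in 4C11+. The libraries of melan-a, 4C and 4C11- formed separate ranges, and 4C11+ overlapped melan-a only. *Met* was 3.89-fold lower in 4C than in melan-a (log2 -1.96 ± 0.32, SE; adjusted p = 0.00138) and another 4.4-fold lower in 4C11- than in 4C (-2.14 ± 0.29; adjusted p = 0.0028). It was 15-fold higher in 4C11+ than in 4C11- (3.90 ± 0.29; adjusted p = 1.56e-06). 4C11+ and melan-a differed by -0.20 ± 0.32 (adjusted p = 0.719). Its ligand gene *Hgf* was not among the genes analysed here.

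*Fgfr1* and *Fgfr2*, receptors of fibroblast growth factors, shared a different pattern, with like levels in melan-a, 4C and 4C11- and a large drop in 4C11+. *Fgfr1* (chromosome 8, 25518759 to 25575718, plus strand) had log2 values of 8.10 and 6.02 in melan-a, 7.07, 7.002 and 7.38 in 4C, 7.81, 7.41 and 7.18 in 4C11-, and 3.37, 2.52 and 3.27 in 4C11+, the last from 43, 22 and 54 reads. Every 4C11+ library lay below every other library. *Fgfr1* was 21.3-fold lower in 4C11+ than in 4C11- (log2 -4.41 ± 0.44, SE; adjusted p = 1.97e-05) and 16-fold lower than in melan-a (-4.004 ± 0.50; adjusted p = 0.000309), or by -2.97 and -5.04 without melan-a replicate 2 and 3. Its difference between 4C and melan-a was 0.09 ± 0.50 (adjusted p = 0.939). With melan-a replicate 3 left out it was -0.95 (adjusted p = 0.146), while 4C11- became higher than melan-a by 1.45 with replicate 2 left out (adjusted p = 0.0346), so the melan-a level of *Fgfr1* is not well fixed. An antisense gene, *Gm16159*, overlaps *Fgfr1*, and their reads may not be separable.

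*Fgfr2* (chromosome 7, 130162451 to 130266808 in RefSeq, minus strand) was absent from 4C11+. It had 0 reads in all 3 of its libraries, against log2 values of 7.45 and 6.28 in melan-a, 6.52, 7.02 and 7.04 in 4C, and 6.83, 6.89 and 6.59 in 4C11-. The other lines overlapped each other. The level in 4C11+ was at least 107-fold lower than in 4C11- (adjusted p = 9.39e-09), at least 114-fold lower than in 4C (adjusted p = 8.45e-09) and at least 115-fold lower than in melan-a (adjusted p = 8.93e-08). 4C and melan-a differed by -0.01 ± 0.36 (log2, SE; adjusted p = 0.992), and by -0.60 or 0.58 when the *Fgfr2* value of melan-a came from replicate 2 or 3 alone. Whether the epithelial or the mesenchymal splice form of *Fgfr2* was transcribed cannot be read from values per gene.

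Of the fibroblast growth factors, *Fgf1*, *Fgf2*, *Fgf7* and *Fgf9* were measured. *Fgf7* and *Fgf9*, which are produced by mesenchymal cells in many tissues, rose in the mesenchymal-like lines by at least 4.89-fold (adjusted p = 0.00029) and at least 5.67-fold (adjusted p = 2.15e-06). *Fgf9* had 0 reads in all 5 epithelial libraries, log2 values of 0.60, 0.69 and 2.25 in 4C, and 3.48, 3.48 and 3.41 in 4C11-. *Fgf7* had 3 and 0 reads in melan-a and 0, 0 and 1 reads in 4C11+. *Fgf1* went the opposite way and was 3.55-fold lower in the mesenchymal-like lines (adjusted p = 0.0052), but the libraries of the phenotypes overlapped. It was 4.40 and 3.95 in melan-a, and 4C11+ was not called against 4C11- (adjusted p = 0.18) or 4C (adjusted p = 0.0924). *Fgf2* was also called lower there (adjusted p = 0.00695), at 0 to 9 reads in every library. *Fgfr1* and *Fgfr2* were high in melan-a, where *Fgf7* and *Fgf9* had at most 3 reads and *Fgf1* had its highest line mean (4.17). Both receptors were low in 4C11+, where *Fgf1* was 2.86, 2.32 and 3.29 (mean 2.82).

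*Pdgfra* and *Pdgfrb*, the receptors of platelet-derived growth factors, were highest in the mesenchymal-like lines. *Pdgfra* (chromosome 5, 75151322 to 75198206, plus strand) had log2 values of 6.38 and 3.91 in melan-a, 7.39, 7.32 and 7.89 in 4C, 7.93, 8.03 and 8.22 in 4C11-, and 2.24, 2.09 and 2.71 in 4C11+, the last from 18, 16 and 35 reads. The lines formed separate ranges in the order 4C11+, melan-a, 4C, 4C11-, although the last step of 0.53 ± 0.49 (log2, SE) was not called (adjusted p = 0.692). *Pdgfra* was 5.25-fold higher in 4C than in melan-a (adjusted p = 0.0111), 52.5-fold lower in 4C11+ than in 4C11- (adjusted p = 5.18e-06) and 6.94-fold lower in 4C11+ than in melan-a (adjusted p = 0.00576). The comparisons of melan-a with 4C, 4C11- and 4C11+ missed the threshold when only the lines compared were fitted (adjusted p = 0.0628, 0.0619 and 0.0532). The *Pdgfra* difference of 4C from melan-a was 3.63 without melan-a replicate 2 and 1.16 without replicate 3 (adjusted p = 0.051), and that of 4C11+ was -1.56 and -4.03.

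*Pdgfrb* (chromosome 18, 61045127 to 61085067, plus strand) had log2 values of 8.14, 8.75 and 8.70 in 4C, 7.86, 8.25 and 7.46 in 4C11-, and 5.02, 5.20 and 4.03 in 4C11+. In melan-a it was 6.90 in replicate 2 and 0.89, from 10 reads, in replicate 3, so 4C11+ lay between the melan-a libraries. Every mesenchymal-like library exceeded every epithelial one, and the mean was 14.6-fold higher (log2 3.87 ± 0.80, SE; adjusted p = 0.00339), with 5.37 and 2.37 when melan-a replicate 2 or 3 was left out. 4C11+ differed from melan-a by 0.85 ± 1.20 (adjusted p = 0.674), but the difference was 3.86 without melan-a replicate 2 (adjusted p = 0.000561) and -2.15 without replicate 3 (adjusted p = 0.0105), so its direction depends on which library stands for melan-a. *Pdgfrb* was 8.63-fold lower in 4C11+ than in 4C11- (adjusted p = 0.0459), although the ranges of these lines lay far apart. Over the alternatives this adjusted p ran from 4.09e-05 to 0.127, the lowest values being those without melan-a replicate 2 or 3. The call of 4C11- above melan-a (15.6-fold; adjusted p = 0.0492) was lost in most alternatives, with adjusted p up to 0.237, and those of 4C above melan-a (24.8-fold; adjusted p = 0.0221) and of 4C11+ below 4C (13.8-fold; adjusted p = 0.019) reached 0.098 and 0.0615. The *Pdgfrb* difference of 4C from melan-a was 7.64 without melan-a replicate 2 (adjusted p = 2.26e-06) and 1.63 without replicate 3 (adjusted p = 0.044), and that of 4C11- was 6.96 (adjusted p = 3.86e-06) and 0.95 (adjusted p = 0.237).

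The measured ligands of these receptors were *Pdgfa*, *Pdgfb* and *Pdgfc*. *Pdgfb* had log2 values of 6.83 and 4.52 in melan-a, 5.67, 6.06 and 5.14 in 4C, 6.32, 6.12 and 6.36 in 4C11-, and 2.24, 2.01 and 1.44 in 4C11+. It was 20.7-fold lower in 4C11+ than in 4C11- (adjusted p = 4.89e-05) and 13.8-fold lower than in melan-a (adjusted p = 0.000983), or by -2.63 and -4.94 (log2) without melan-a replicate 2 and 3, both called. *Pdgfc* was 5.75 in melan-a replicate 2 and 0.75 in replicate 3, 5.32, 5.49 and 5.45 in 4C, 4.04, 4.32 and 4.32 in 4C11-, and 0, 2 and 0 reads in 4C11+. It was at least 18.4-fold lower in 4C11+ than in 4C11- (adjusted p = 0.000885). *Pdgfa* was lower in 4C11+ than in 4C11- by 2.14-fold (adjusted p = 0.0134). All 3 ligands and both receptors were thus lower in 4C11+ than in 4C11-, and *Pdgfc* and *Pdgfrb* were high in the same melan-a library.

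*Igf1r*, the receptor of insulin-like growth factors (chromosome 7, 67952257 to 68233668, plus strand), was well expressed in every line and lowest in 4C11+. Its log2 values were 7.47 and 6.59 in melan-a, 7.43, 7.97 and 7.90 in 4C, 7.71, 7.69 and 7.82 in 4C11-, and 5.58, 5.39 and 5.55 in 4C11+. The 4C11+ libraries lay below all others, and melan-a overlapped 4C. *Igf1r* was 4.7-fold lower in 4C11+ than in 4C11- (log2 -2.23 ± 0.25, SE; adjusted p = 4.12e-05) and 2.88-fold lower than in melan-a (-1.52 ± 0.28; adjusted p = 0.00373). The differences of 0.74 ± 0.28 between 4C and melan-a (adjusted p = 0.0989) and 0.71 ± 0.28 between 4C11- and melan-a (adjusted p = 0.124) missed the threshold. Both passed it without melan-a replicate 2, at 1.18 (adjusted p = 0.0166) and 1.15 (adjusted p = 0.0195).

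Its ligands changed more than the receptor. *Igf2*, a fetal growth factor, had 7 and 4 reads in melan-a and 0, 1 and 1 reads in 4C11+, log2 values of 4.38, 3.83 and 4.77 in 4C, and 8.72, 8.83 and 8.50 in 4C11-. It rose 16.1-fold from melan-a to 4C (adjusted p = 0.000281) and 20.5-fold from 4C to 4C11- (adjusted p = 0.000671), and it was at least 404-fold lower in 4C11+ than in 4C11- (adjusted p = 5.45e-08). *Igf1* had 0 reads in all 5 epithelial libraries, log2 values of 2.72, 1.78 and 2.25 in 4C, and 0.85, 2.41 and 3.50 in 4C11-, and it was at least 5.42-fold higher in the mesenchymal-like lines (adjusted p = 1.21e-05). Among the binding proteins of these ligands, *Igfbp2*, *Igfbp5*, *Igfbp6* and *Igfbp7* were called higher in the mesenchymal-like lines. *Igfbp6* was at least 235-fold higher (adjusted p = 6.72e-09), with no epithelial library above 2 reads. *Igfbp7* had 0 reads in melan-a and 16, 7 and 7 reads in 4C11+, and it was at least 88.9-fold higher in 4C than in melan-a (adjusted p = 3.51e-07) and 21.6-fold lower in 4C11+ than in 4C11- (adjusted p = 1.79e-05). *Igfbp5* was 5.82 and 2.14 in melan-a and had 0 reads in every 4C11+ library, at least 333-fold below 4C11- (adjusted p = 6.17e-07). *Igfbp2* was at least 31.8-fold lower in 4C11+ than in 4C11- (adjusted p = 0.00421), and melan-a overlapped the mesenchymal-like lines, with 7.99 in replicate 2 and 9 reads in replicate 3. *Igfbp4*, named after its values were seen, was 8.61-fold higher in 4C11+ than in 4C11- (adjusted p = 0.00275) and was not called between the phenotypes (adjusted p = 0.406).

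The plot of 8 ligand genes by library shows these levels, and in it the mesenchymal-like lines held *Igf1*, *Igf2*, *Fgf7* and *Fgf9* and the epithelial lines *Nrg2*. Of the 14 ligands measured, of 35 listed, 6 were higher, 3 lower and 5 not called in the mesenchymal-like lines, beside 29.7% of all genes called, with a median log2 difference of 0.12 against -0.09 over all genes. With genes of a mean log2 value under 1 left out of the fit, 4 ligands were called, because fewer ligands were then tested.

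**Figure D2:**
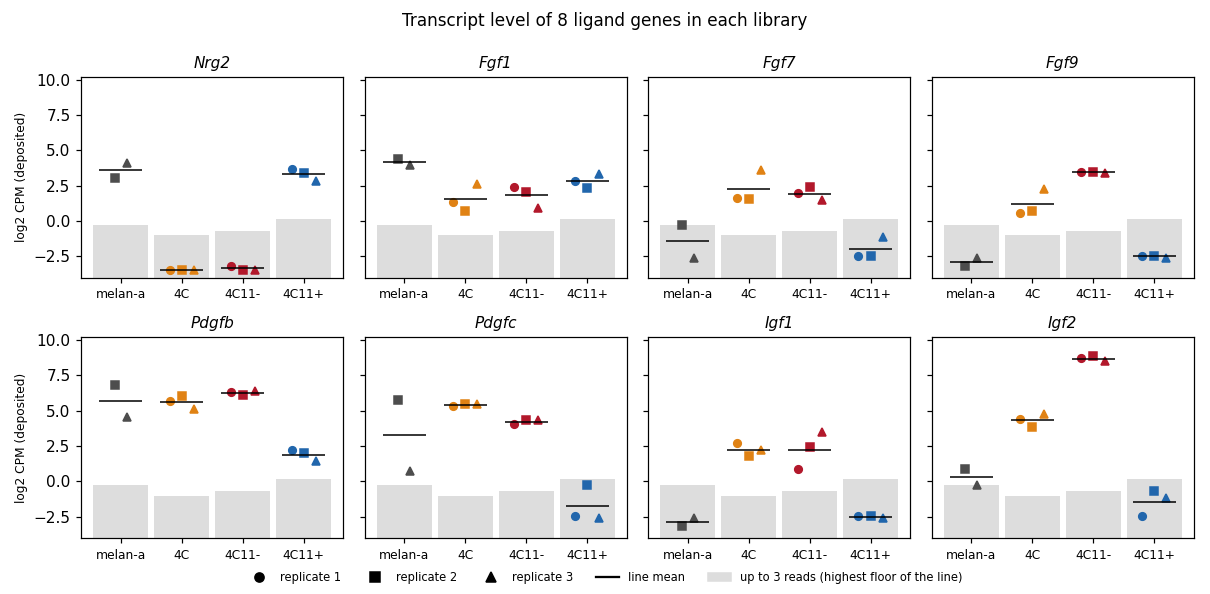
Deposited log2 CPM (y axis) of 8 ligand genes in each of the 11 libraries, by line (x axis); symbols mark the replicate number, black lines the mean of a line, and grey areas values up to the highest 3-read level of the line. *Nrg2* lies in the grey area in the mesenchymal-like lines, *Igf1* and *Fgf9* in the epithelial lines, and *Igf2* is highest in 4C11- at 8.50 to 8.83.

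The model holds 2 pairs of a mesenchymal-like and an epithelial line, 4C with melan-a among the non-tumorigenic lines and 4C11- with 4C11+ among the tumorigenic ones, and they share no library. The difference between the pairs, (4C11- minus 4C11+) minus (4C minus melan-a), was tested in the same fit, a comparison chosen after the data were seen. It was called for 5 receptors, 4 higher and 1 lower, against 9.83% of all genes. *Fgfr1*, *Fgfr2* and *Igf1r* differed between the phenotypes in the tumorigenic pair and had differences of 0.09, -0.01 and 0.74 (log2) in the non-tumorigenic pair. The difference of *Pdgfra* was 5.71 in the tumorigenic and 2.39 in the non-tumorigenic pair (adjusted p of the difference = 0.0154), and that of *Met* was -3.90 and -1.96 (adjusted p = 0.0163). *Egfr*, at 6.75 and 7.11, and *Erbb2*, at 0.93 and 1.05, were not called for a difference between pairs (adjusted p = 0.799 and 0.887). The *Egfr* values rest on epithelial lines with at most 3 reads per library and are not measured sizes. The *Egfr* differences are known only as at least 26.2-fold and 24.9-fold, so that test cannot show that the pairs were alike. For *Pdgfrb* the differences of 3.11 and 4.63 were not told apart (adjusted p = 0.604). The difference between the pairs was -4.53 without melan-a replicate 2 and 1.48 without replicate 3, so its direction depends on the melan-a library.

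**Figure D3:**
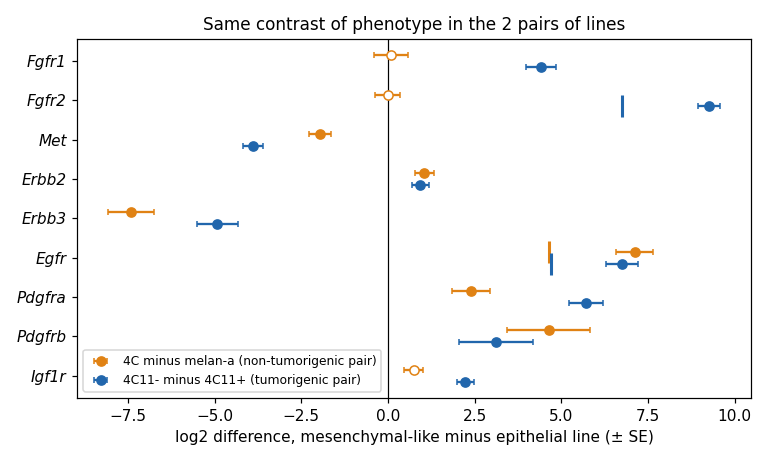
Log2 difference of the mesenchymal-like minus the epithelial line, with its SE (x axis), for each receptor (y axis) in the non-tumorigenic pair (orange) and the tumorigenic pair (blue); filled points were called, open ones not, and short vertical bars give the lower bound where the epithelial line held at most 3 reads per library. *Fgfr1*, *Fgfr2* and *Igf1r* have open points in the non-tumorigenic pair, and *Egfr* and *Erbb2* lie close together in both.

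Levels of different receptors were compared only after division by the exon length of the gene (GENCODE M21, all exons merged), a scale added after the data were seen. In melan-a, *Erbb3* (log2 CPM per kb 5.02 ± 0.62, SD, n = 2) and *Met* (4.42 ± 0.17) had the highest means, within the spread of *Erbb3*. *Fgfr1* (3.76 ± 1.47), *Fgfr2* (3.50 ± 0.83) and *Igf1r* (2.96 ± 0.62) followed and overlapped in their spread, and *Pdgfrb* was at 1.44 ± 4.25. The melan-a libraries had different orders. In replicate 2, *Fgfr1* (4.79) and *Pdgfrb* (4.45) came after *Erbb3* and ahead of *Met* (4.30), whereas *Erbb3* and *Met* led in replicate 3. In 4C, *Pdgfrb* (6.08 ± 0.34, n = 3) and *Pdgfra* (4.21 ± 0.31) led, and *Fgfr1*, *Igf1r*, *Erbb2* and *Fgfr2* lay close together between 3.49 and 3.85. 4C11- had the same 3 leaders, *Pdgfrb* (5.40 ± 0.40), *Pdgfra* (4.73 ± 0.15) and *Fgfr1* (4.16 ± 0.32). In 4C11+, *Erbb3* (4.77 ± 0.72) and *Met* (4.23 ± 0.39) led again and were within their spread, followed by *Erbb2* (2.56 ± 0.30) and *Pdgfrb* (2.30 ± 0.63). Merged exons overstate the length of a gene whose cells use short transcripts, so small gaps in these orders are uncertain.

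**Figure D4:**
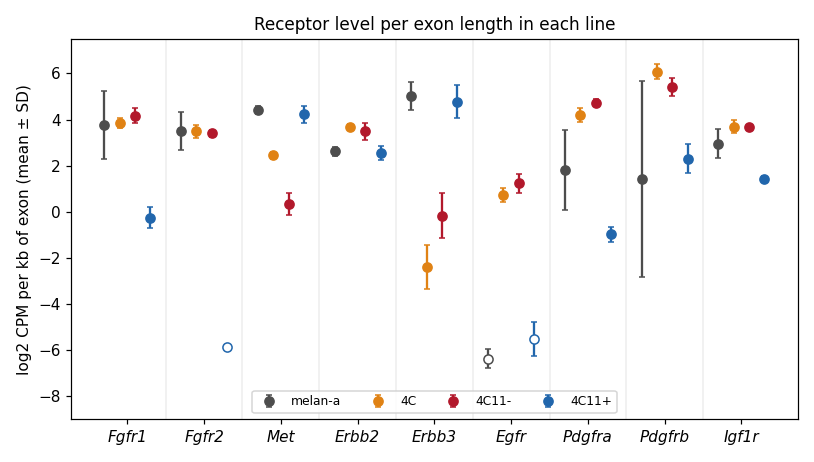
Mean level of each receptor (x axis) in each line as log2 CPM per kb of merged exon (y axis), with the SD over 2 melan-a or 3 other libraries; open circles mark lines with at most 3 reads in every library. *Erbb3* and *Met* have the highest means in melan-a and 4C11+, *Pdgfrb* and *Pdgfra* in 4C and 4C11-, and the SD of 4.25 marks the disagreement of the melan-a libraries on *Pdgfrb*.

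Co-receptors, binding proteins and enzymes of ligand release changed in both directions. Of 20 measured of 30, 6 were higher and 4 lower in the mesenchymal-like lines (median log2 difference 0.41), beside 29.7% of all genes called and a median of -0.09. Of 28 measured adaptors and proximal effectors of 30, 4 were higher and 7 lower (median -0.03), beside the same 29.7%. *Shc4*, a Shc adaptor, was 17.8-fold lower in the mesenchymal-like lines (adjusted p = 4.08e-05), with values of 6.09 and 4.33 in melan-a, 5.71, 5.15 and 6.93 in 4C11+ and 0.26 to 2.44 in the mesenchymal-like libraries. *Plcg2*, a phospholipase C better known from blood cells, was at least 26.9-fold lower there (adjusted p = 5.85e-05). It was 4.85, 5.40 and 4.10 in 4C11+ and at most 1 read in each mesenchymal-like library, but melan-a was 4.47 in replicate 2 and had 2 reads in replicate 3. *Pik3cd*, a catalytic subunit of PI3K, was 14-fold higher in 4C11+ than in melan-a (adjusted p = 0.00125), or by 4.66 and 2.96 (log2) without melan-a replicate 2 and 3, both called. *Shc3* was 7.09-fold higher (adjusted p = 0.0122), a call lost without melan-a replicate 3 (adjusted p = 0.0636). The common adaptors *Grb2* and *Shc1*, named after their values were seen, differed between phenotypes by -0.29 ± 0.17 (adjusted p = 0.224) and 0.00 ± 0.24 (adjusted p = 0.993).

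A list of negative regulators of receptor signaling also held *Flrt1* and *Flrt3*, which are not taken here as inhibitors. Of its 21 measured genes of 26, 7 were higher and 4 lower in the mesenchymal-like lines (median 0.19), beside 29.7% of all genes called. *Il17rd*, an inhibitor of fibroblast growth factor signaling, and *Lrig1*, which promotes the breakdown of Erbb receptors and Met, were lowest in 4C11+ like *Fgfr1*. *Il17rd* was 7.15-fold lower in 4C11+ than in 4C11- (adjusted p = 6.85e-05) and *Lrig1* 6.77-fold lower (adjusted p = 0.000141). *Flrt3*, a membrane protein that interacts with fibroblast growth factor receptors, was at least 25.3-fold lower in the mesenchymal-like lines (adjusted p = 1.39e-06), with 4.70 and 4.60 in melan-a and 1.33, 1.32 and 2.89 in 4C11+. *Flrt1* was at least 4.19-fold higher there (adjusted p = 0.000155).

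Of 23 other receptor tyrosine kinases measured of 45, 9 were higher and 5 lower in the mesenchymal-like lines (median 0.23), beside 29.7% of all genes called. *Kit*, the stem cell factor receptor of melanocytes, had log2 values of 6.92 and 6.18 in melan-a and 2.69, 2.17 and 4.22 in 4C11+, and 6, 0 and 0 reads in 4C and 0 reads in 4C11-. Unlike *Met* and *Erbb3*, *Kit* was lower in 4C11+ than in melan-a, by 11.5-fold (adjusted p = 0.0299), a call lost without melan-a replicate 2 or 3 (adjusted p = 0.173 and 0.0596). *Ror1*, a Wnt5a receptor, followed *Fgfr2* more closely, with 0 reads in all 4C11+ libraries against 3.28 and 3.06 in melan-a, 3.92 to 4.12 in 4C and 3.57 to 3.59 in 4C11-. *Ephb3*, an ephrin receptor, split the melan-a libraries as *Pdgfrb* did, with 6.01 in replicate 2 and 0 reads in replicate 3. *Epha4* was at least 10.9-fold lower in 4C11- than in 4C (adjusted p = 0.000988). *Fgfr3*, named after its values were seen, was 8.03-fold lower in 4C11+ than in 4C11- (adjusted p = 0.000439) and 3.3-fold lower than in melan-a (adjusted p = 0.0406, and 0.266 without melan-a replicate 2), so *Fgfr1*, *Fgfr2* and *Fgfr3* all had their lowest mean in 4C11+.

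Over the 11 libraries, which share their lines, *Fgfr1* correlated with *Fgfr2* (Pearson r = 0.97) and *Igf1r* (0.96), *Pdgfra* with *Igf1r* (0.98), and *Erbb3* with *Egfr* at -0.92. *Met* correlated with *Erbb3* at 0.70, *Met* being lowest in 4C11- and *Erbb3* in 4C. Among 11775 genes with a line mean of at least 2, the genes most like each receptor were *Gata4* for *Fgfr1* (0.99), *Foxd1* for *Fgfr2* (0.996), *Cdca7l* for *Met* (0.98), *Kctd11* for *Erbb2* (0.98), *Tacc1* for *Erbb3* (0.99), *Svep1* for *Egfr* (0.996), *Slc38a4* for *Pdgfra* (0.99), *Vasn* for *Pdgfrb* (0.98) and *F2r* for *Igf1r* (0.99). *Igfbp5* was the second closest to *Pdgfra* and *Sox10* the third closest to *Erbb3*. With 4 lines behind 11 libraries, such values describe mainly the line means.

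Markers of other cell types were measured in small part. Of the 8 keratinocyte markers, 2 were measured, with sums of 0.783 to 5.11 CPM over all libraries. The 2 measured of 6 leukocyte markers summed to 3.9 to 82.9 CPM. The highest sum was in melan-a replicate 2, the library with more *Pdgfrb*, *Pdgfra* and *Pdgfc*. In that library *Cd68* was 6.35 and *Csf1r* had 5 reads. Of the 6 endothelial markers, 2 were measured, with sums of 95.8 to 178 CPM in 4C11- and 1.02 to 30.2 CPM in the other lines. In 4C11-, *Cdh5* was 6.73, 7.43 and 6.54, and *Vwf* 4.21, 2.52 and 1.51. *Cdh5* was called higher in 4C11- than in 4C (50.1-fold; adjusted p = 0.0135), melan-a (adjusted p = 0.000123) and 4C11+ (at least 117-fold; adjusted p = 2.39e-05). *Vwf* was highest in melan-a replicate 2 (4.91). In 4C11- it was not called against 4C (adjusted p = 0.862) or melan-a (adjusted p = 0.597), but exceeded 4C11+ (adjusted p = 0.0286). The part of these markers in the receptor results was not tested.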

How the data were processed

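Total RNA of 11 samples of 4 murine lines was sequenced after ribosomal RNA removal (Ribo-Zero Gold) with stranded libraries. According to the methods of the study, reads were trimmed with Trimmomatic, aligned with STAR to the mouse genome of Ensembl 90 (GRCm38), assigned to genes with Rsubread, filtered to genes reaching 1 CPM in 4 or more libraries and normalized with voom. A receptor above 1 CPM in a single line of 3 libraries would therefore have no row. The authors deposited the result as log2 CPM per gene. All libraries share their highest value, as after quantile normalization between libraries, a step the methods do not name, so they cannot show a change in total RNA. The values were used as deposited.

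The k-th distinct value of a library, counted from 0, was read as k reads up to 60 reads. The step of 40 reads gave a rough depth of 3.50 to 7.42 M reads per library. It is not a measured depth, because values that appear quantile-normalized do not keep plain library scaling. Counts of 3 or fewer were treated as absent. Groups were taken from the labels. Line means were fitted with limma 3.58.1 (R 4.3.3) over all 11 libraries, using a mean-variance trend, two-sided tests and Benjamini-Hochberg adjusted p-values, and the fit was tested on simulated data. There were 7 comparisons fixed at the start and 1 added later. Tables and figures used Python 3.11.15, NumPy 2.4.6, pandas 2.3.3 and matplotlib 3.10.9. Named genes are the 9 receptors, all measured ligands, up to 4 genes per list with the largest range of line means among those called in a comparison of 2 lines, and per receptor the 3 genes most correlated with it, not all of which are printed; exceptions are stated. The receptors and gene lists were chosen with earlier results of these data known. Gene positions and promoter windows are from RefSeq (GRCm38.p6), where windows were found for 6 of the 9 receptors. Alternatives changed the variance model, the normalization, the genes kept, the lines fitted, a term for the replicate number, or left out each library. Melan-a replicate 1 was not used here.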

Additional observations from a re-analysis of the deposited data

Results flagged for a closer look

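For 5 receptors, the difference between a mesenchymal-like and an epithelial line was not the same in the tumorigenic pair (4C11- minus 4C11+) and the non-tumorigenic pair (4C minus melan-a), by a limma test of that difference which was chosen after the data were seen. The difference between the pairs was 4.32 ± 0.67 (log2, SE) for *Fgfr1* (adjusted p = 0.00221), 9.27 ± 0.48 for *Fgfr2* (adjusted p = 2.21e-06), -1.94 ± 0.43 for *Met* (adjusted p = 0.0163), 3.32 ± 0.73 for *Pdgfra* (adjusted p = 0.0154) and 1.49 ± 0.37 for *Igf1r* (adjusted p = 0.0271). The value of *Fgfr2* rests on 4C11+ libraries with 0 reads and is not a measured size. Without melan-a replicate 2 or 3, that of *Fgfr1* was 3.29 or 5.36 and that of *Pdgfra* 2.09 or 4.56. The call of *Met* was lost without melan-a replicate 2 (-1.82, adjusted p = 0.0558), and that of *Igf1r* without melan-a replicate 2 (1.05, adjusted p = 0.0948), without 4C replicate 1, 4C11- replicate 2 or 4C11+ replicate 1 or 2 (adjusted p = 0.0587 to 0.0721) and without the variance trend (adjusted p = 0.0539). With 2 or 3 libraries per line, no check for single outlying libraries was made.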

How the results depend on the processing

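The receptor counts kept within 1.5 times of their value in every alternative except 4C11- against melan-a, where 3 receptors were called when only the lines compared were fitted. Over single receptors, 473 of the values from alternatives that kept all libraries had the same direction and side of the threshold, 11 lost the call and 2 reversed. With a library left out, 728 were unchanged in that sense, 38 lost and 6 gained the call, and 20 reversed. Counts over all genes moved more. In 4C11- against 4C they were 125 with genes of mean log2 value under 1 left out, 143 with only the lines compared, and 93 to 320 with a library left out. With only the lines compared they were 843 in 4C11- against melan-a and 1446 in 4C11+ against melan-a, and with a library left out 1089 to 2864 in the latter and 770 to 1934 for the difference between the pairs. The filter left 4 ligands called between the phenotypes. The filter tests fewer genes and the fit of the lines compared uses fewer libraries; other causes were not tested.

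With a library left out, reversed values belonged to differences that were not called with all libraries. Their ranges for *Fgfr1* were -0.95 to 1.13 (4C minus melan-a) and -0.63 to 1.45 (4C11- minus melan-a), for *Fgfr2* -0.60 to 0.58 (4C minus melan-a), -0.26 to 0.0041 (4C11- minus 4C) and -0.68 to 0.49 (4C11- minus melan-a), for *Igf1r* -0.20 to 0.069 (4C11- minus 4C), for *Erbb2* -0.22 to 0.085 and for *Erbb3* -0.69 to 0.18 (both 4C11+ minus melan-a), and for *Pdgfrb* -2.15 to 3.86 (4C11+ minus melan-a). In the difference between the pairs they were -0.30 to 0.063 for *Erbb2*, -0.65 to 0.066 for *Egfr* and -4.53 to 1.48 for *Pdgfrb*. Counts for the gene lists were recomputed only between the phenotypes. The other planned list counts were not run.

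Deviations from the line means were correlated between libraries of different lines. Same-numbered libraries gave 15 correlations from -0.23 to 0.39 (median 0.15), and differently numbered ones 30 from -0.42 to 0.34 (median -0.09). Same-numbered libraries thus deviated together more, though not throughout. Deviations from a line mean cancel within the line, so the same-numbered and differently numbered correlations are linked and not separate observations. The labels do not say that a number marks a shared batch, so the main fit did not pair the libraries. With the replicate number as a block, 4C minus melan-a became -0.0064 for *Fgfr1* and 0.031 for *Fgfr2*, 2265 of all genes and 6 receptors were called there, and no receptor call changed under the block.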
